A study of Mus musculus with 16 samples.

Results

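The genes of cholesterol and fatty acid synthesis were followed across 6 groups of CD11b-selected mouse brain cells. The set holds 31 genes, chosen by name: regulators of sterol synthesis, enzymes of the mevalonate, sterol and fatty acid branches, and sterol carriers, exporters and receptors. Every array probe carrying a member's symbol was taken, which gave 38 of 25697 probes for 27 genes. Acat2, Mvk, Fdft1 and Nr1h2 had no probe under those symbols. Of the 38 probes, 34 were above background on at least 2 of 16 arrays and were tested, and they cover all 27 genes. The other 4 were extra probes of Insig1, Insig2, Srebf1 and Nr1h3 that were above background on 0 arrays.

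The study asked how altered SIRT1 levels change microglia in young and aged mice and in models of dementia. Brains were dissociated, myelin was removed on beads, and cells bearing CD11b, an integrin subunit of myeloid cells, were collected on beads as microglia. The mice were on a BL6 and 129/Sv background. The groups were TAU/LysM (2 arrays), TAU (2), old LysM-Cre/SIRT1F/F (3), old SIRT1F/F (3), young LysM-Cre/SIRT1F/F (3) and young SIRT1F/F (3). In SIRT1F/F mice the Sirt1 gene is floxed. The LysM-Cre/SIRT1F/F mice, called LysM-Cre below, in addition express Cre recombinase from Lyz2, a lysozyme gene strongly expressed in neutrophils and monocytes. The labels give no age in numbers and no age for either TAU group, do not name the promoter of a tau transgene, and do not repeat the floxed genotype for TAU/LysM. They also do not say whether arrays of a group came from separate animals, so the p-values reflect array-to-array spread that may be partly or wholly technical.

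Levels are normalized log2 intensities, so a difference of 1 is a doubling of signal, and levels of different probes cannot be set against each other. All 11 tested microglia markers of 13 listed were above background on all 16 arrays. The Sirt1 probe itself differed little with LysM-Cre: the difference was 0.05 ± 0.15 (SE) in TAU samples, 0.07 ± 0.12 in old and 0.03 ± 0.12 in young samples (limma adjusted p = 0.928, 0.945 and 0.953). Whether that probe lies in the floxed part is not known here. The 10 tested oligodendrocyte markers of 14 listed had a summed normalized intensity of 32434 to 41968 on the TAU arrays, where all 10 were above background, against 5695 to 10977 on all other arrays, where 5 or 6 were. On 5 arrays the level of Xist or of the Y-linked Eif2s3y was under 7: 1 TAU/LysM, 2 old SIRT1F/F and 2 young LysM-Cre arrays. The other 11 arrays carried both transcripts, and how many animals an array holds is not given in the labels. In these bulk samples, more cells of a type and more RNA per cell cannot be told apart.

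Cholesterol synthesis runs from acetyl-CoA through mevalonate and squalene to lanosterol and then to cholesterol. When sterol in the endoplasmic reticulum is low, the transcription factor SREBP2, made from Srebf2, is cut free from the membrane and turns on nearly every enzyme of the path, while the INSIG proteins hold it back when sterol is plentiful. SREBP1, made from Srebf1, favours the fatty acid genes, and liver X receptors respond to oxysterols and raise the exporters Abca1 and Abcg1. Microglia take up myelin debris and are known to handle large sterol loads through these exporters.

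The upstream sequences of 3 members are shown because SREBP2 is known to act at a sterol regulatory element, often next to a CCAAT box bound by NF-Y. Srebf2 and Idi1 were members called in a comparison, and Hmgcs1 is a target of SREBP2 whose level stayed nearly flat. Each stretch is the 250 bases before the RefSeq start in build GRCm38.p6, plus strand: chr15:82147019-82147268 for Srebf2, chr13:8885356-8885605 for Idi1 and chr13:119690101-119690350 for Hmgcs1. Capitals mark the element core TCACCCCA and the CCAAT box, here on the minus strand and so read as ATTGG.
Srebf2: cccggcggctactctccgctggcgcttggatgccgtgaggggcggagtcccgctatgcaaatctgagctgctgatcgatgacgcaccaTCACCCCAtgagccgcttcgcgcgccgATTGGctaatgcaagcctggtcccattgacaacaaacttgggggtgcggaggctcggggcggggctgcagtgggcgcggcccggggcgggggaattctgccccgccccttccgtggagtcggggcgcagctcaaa
Idi1: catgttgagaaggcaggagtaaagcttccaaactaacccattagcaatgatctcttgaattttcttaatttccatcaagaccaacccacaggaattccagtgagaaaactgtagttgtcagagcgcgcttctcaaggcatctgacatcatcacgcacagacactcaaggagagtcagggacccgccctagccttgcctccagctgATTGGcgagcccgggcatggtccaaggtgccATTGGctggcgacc
Hmgcs1: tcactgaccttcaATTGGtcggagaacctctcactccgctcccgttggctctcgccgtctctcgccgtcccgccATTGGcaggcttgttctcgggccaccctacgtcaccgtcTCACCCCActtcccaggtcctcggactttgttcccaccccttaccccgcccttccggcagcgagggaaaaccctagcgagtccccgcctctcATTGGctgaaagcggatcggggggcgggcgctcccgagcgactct

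Srebf2 and Hmgcs1 hold the core and a CCAAT box, and Idi1 holds a pair of CCAAT boxes without the core. Upstream stretches were found for 24 of the 31 members, with 32 entries since some genes have several starts. On both strands, TCACCCCA was in 2 of these 32 and in 1.34% of all 32851 stretches. CCAAT was in 18 of 32 against 33.8% of all, the GC box GGGCGG in 21 of 32 against 32.7% and the E-box CACGTG in 5 of 32 against 6.02%. GGGCGG can lie inside other GC-rich motifs, and a match is a description of letters, not a bound site.

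Most members varied little over the 6 groups, as did most tested probes, so this was not particular to the members. The group means spanned less than 0.5 for 20 of the 34 tested probes (58.8%, against 62.5% of all 16344 tested probes), and at least 1 for 2 probes, Acaca (1.31) and Scd1 (1.30), which is 5.88% against 9.05% of all. A probe was called at a limma adjusted p under 0.05 over all tested probes.

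In TAU/LysM against young LysM-Cre, 4 of 34 member probes were called, all higher (Acaca, Stard4, Idi1 and a probe of Sqle), where 7.27% of all tested probes were called and 3.46% were called higher. In TAU/LysM against old LysM-Cre 1 was called, Acaca, higher, where 2.26% of all were called and 1.48% were called higher. In that comparison 28 of the 34 differences were above 0, against 49.6% of all probes, and against young LysM-Cre 23 were, against 46.9%. For TAU 24 were above 0 against old and 22 against young SIRT1F/F samples, where 46.8% and 44% of all were. Probes of 1 gene are not independent and share the same arrays, so these counts are a description. In TAU against young SIRT1F/F 2 were called, Acaca and Scd1, both higher, where 11.9% of all were called and 6.31% were called higher. The same 2 were called higher in TAU against old SIRT1F/F, where 3.99% of all were called and 2.72% were called higher. These pairs of comparisons share the TAU/LysM or the TAU arrays, and since age is not given for those mice, age and the TAU label cannot be told apart.

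For LysM-Cre the calls were fewer. In TAU/LysM against TAU 1 of 34 probes was called, Scd1, lower, where 1.48% of all were called and 1.16% were called lower. In the LysM-Cre difference averaged over young, old and TAU samples 1 was called, Srebf2, higher, where 1.22% of all were called and 0.765% were called higher. In old samples 0 of 34 were called with limma, where 0.0184% of all were, and 2 had an unadjusted p under 0.05, against 6.6% of all probes. In young samples 0 of 34 were called with limma, where 0% of all were, and 3 had an unadjusted p under 0.05, against 7.94% of all probes.

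With age no member was called, and few of all tested probes were. In old against young LysM-Cre 0 of 34 were called with limma, where 1.71% of all were, and 4 had an unadjusted p under 0.05, against 17.4% of all. In old against young SIRT1F/F 0 of 34 were called, where 1.27% of all were, and 2 had an unadjusted p under 0.05, against 14.7% of all. The tests of whether the differences themselves differed also called 0 members with limma. For LysM-Cre in TAU minus young samples 0.306% of all probes were called, and 2 members had an unadjusted p under 0.05, against 7.75% of all. In TAU minus old samples 0.202% of all were called, and 3 members had such a p, against 7.24% of all. For age in LysM-Cre minus SIRT1F/F 0% of all were called and 0 members had such a p, against 2.45% of all. The smallest member p belonged to Fasn (difference of differences -0.49 ± 0.30), Idi1 (0.26 ± 0.16) and Msmo1 (0.29 ± 0.24).

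**Figure D1:**
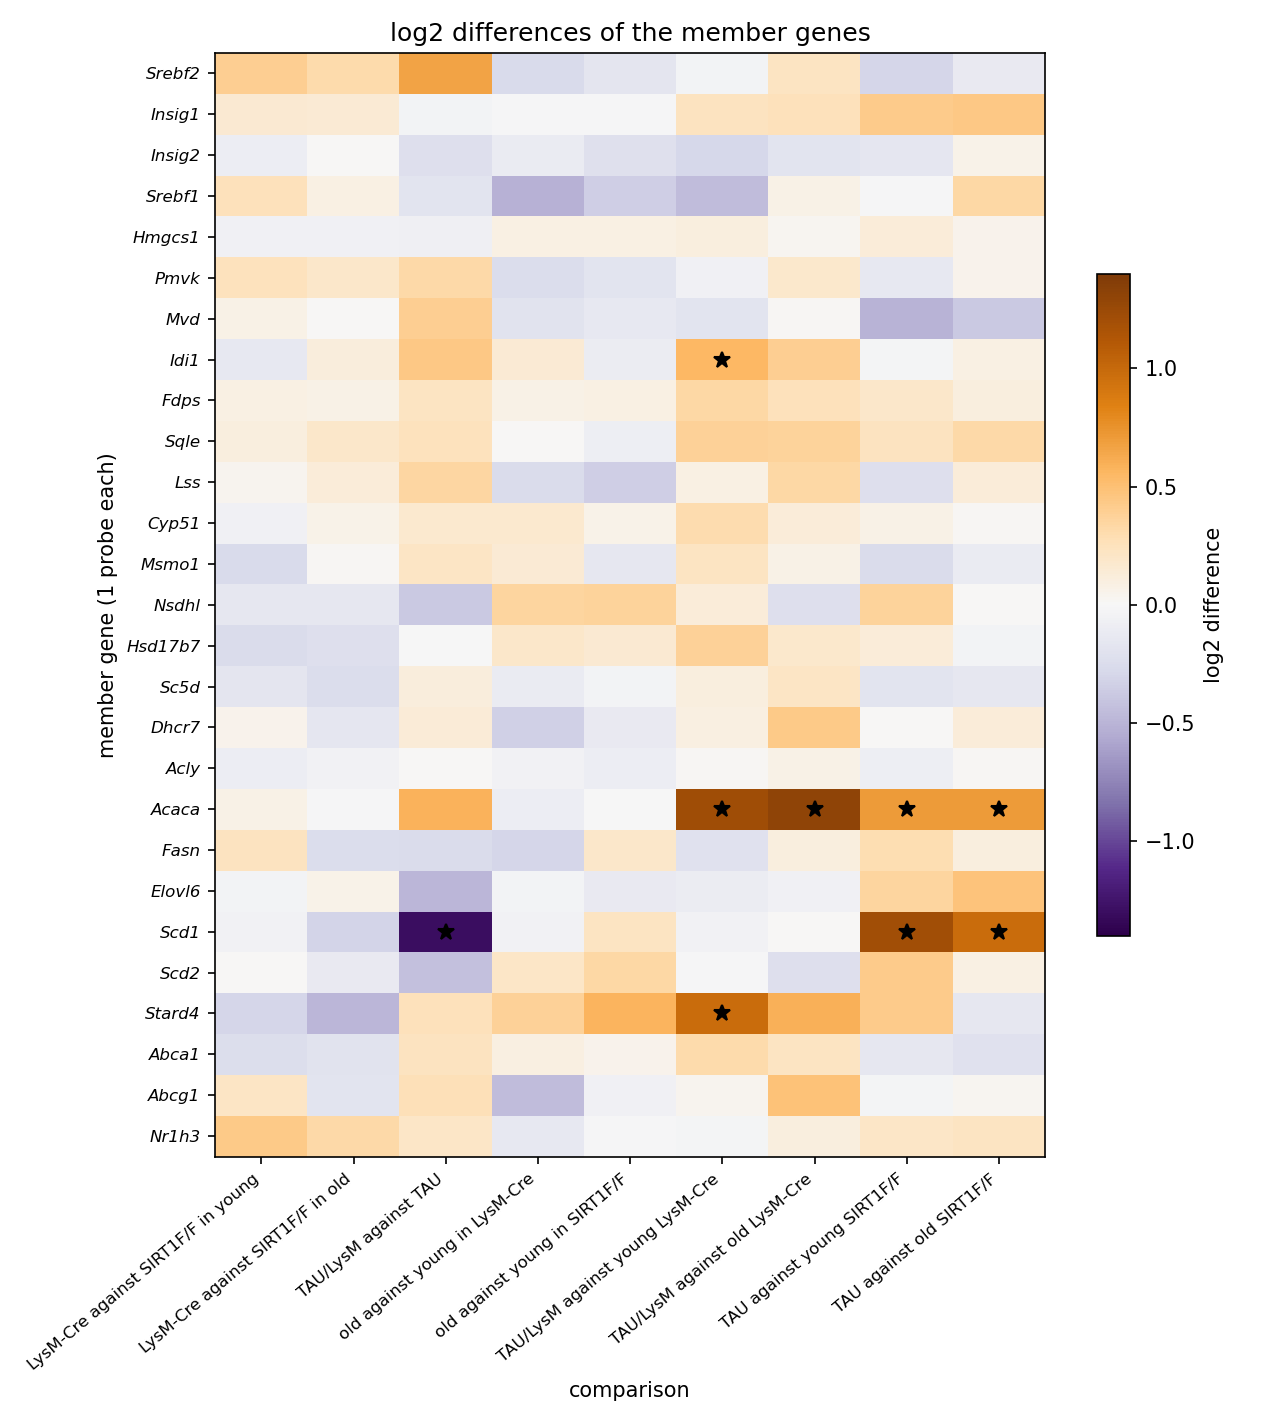
Log2 difference of each member (rows, by role, 1 probe a gene) in each comparison of 2 groups (columns). Colour gives the size and sign, and stars mark calls at adjusted p under 0.05. The called Sqle probe is not shown, as it is not the brighter of its gene. The LysM-Cre average is not a column, so the call of Srebf2 there has no star. Acaca and Scd1 carry the largest values, and most cells are near 0.

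The regulators come first in the path. Srebf2 was higher with LysM-Cre on average over the 3 settings. Its level was 9.62 and 9.73 on the TAU/LysM arrays against 9.001 and 9.032 on the TAU arrays, so these groups did not overlap. It was 9.22, 9.33 and 9.79 in old LysM-Cre samples against 9.13, 9.25 and 9.04 in old SIRT1F/F samples. In young LysM-Cre samples it was 9.78, 9.45 and 9.92, against 9.41, 9.07 and 9.46 in young SIRT1F/F samples. In old and in young samples the ranges overlapped.

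The average difference of Srebf2 was 0.46 ± 0.10 (SE; 95% interval 0.24 to 0.67), or 1.37-fold, with a limma adjusted p of 0.0488. The difference was 0.66 ± 0.19 in TAU samples (adjusted p = 0.127), 0.31 ± 0.16 in old (0.783) and 0.40 ± 0.16 in young samples (0.626). The call rests on the average and lies close to the threshold: it was lost on leaving out any 1 of the arrays other than young SIRT1F/F 1 and young LysM-Cre 2, with differences of 0.40 to 0.50 over all 16 such fits. Markers of other cells differed with LysM-Cre too. Of neutrophil markers, a cell type that expresses Lyz2, all 10 listed were tested and 0 were called in the average with limma, with a summed intensity of 125870 to 134021 in TAU/LysM against 89308 to 109811 in TAU samples. The sum was 179880 to 195970 in old LysM-Cre against 126967 to 167855 in old SIRT1F/F samples, and 126991 to 199117 in young LysM-Cre against 99189 to 136494 in young SIRT1F/F samples. No fewer than 9 of the 10 were above background on any array. Of monocyte markers 4 of 8 were tested and 2 were called higher in the average, F10 (0.91) and Plac8 (0.84), with a sum of 8603 to 11015 in TAU/LysM against 3649 to 6515 in TAU samples, 17648 to 21760 in old LysM-Cre against 9789 to 14433 in old SIRT1F/F samples, and 9803 to 19325 in young LysM-Cre against 5387 to 11997 in young SIRT1F/F samples. Of B cell markers 4 of 7 were tested and 3 were called higher (Ly6d, Cd79a and Vpreb3), and of the 10 oligodendrocyte markers 8 were called lower. The oligodendrocyte sum was 7115 to 8129 in TAU/LysM against 32434 to 41968 in TAU samples. In old samples it was 7385 to 9376 with LysM-Cre against 7319 to 9766, and in young samples 5695 to 9204 against 6155 to 10977, so these ranges overlapped. With the mean oligodendrocyte marker level as a covariate the average Srebf2 difference was 0.36 ± 0.27 (limma adjusted p = 0.793), no longer called. In TAU/LysM against TAU samples it was 0.41 ± 0.68, with an error too large to give a sign. The part of the neutrophil, monocyte and B cell markers in the Srebf2 difference was not tested.

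Insig1, whose product retains SREBP2 in the endoplasmic reticulum, gave different pictures by probe. Its brightest probe, ILMN_2895388, read 10.01 and 10.17 on the TAU arrays, against 9.47, 9.84 and 9.64 in old and 9.53, 9.66 and 9.81 in young SIRT1F/F samples. The TAU values were above all 6 others, yet neither difference was called (0.44, adjusted p = 0.0967, against old samples, and 0.43 ± 0.14, adjusted p = 0.0566, against young samples). These values lie near the threshold: of 16 alternative fits the probe was called in 6 against young samples (adjusted p down to 0.0197) and in 2 against old (down to 0.0293). With the oligodendrocyte marker level as a covariate the differences were 1.37 ± 0.42 and 1.35 ± 0.42, neither called. Its LysM-Cre difference was -0.04 in TAU, 0.15 in old and 0.15 in young samples. The dimmer probes ILMN_1245272 and ILMN_2606693 were lower with LysM-Cre by at least 0.2 in all 3 settings, none of it called. They spread widely within groups, with a within-group SD of 0.45 each against 0.14 for the brightest probe. Which transcript each probe reads was not analysed here.

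Insig2, the related retention protein, also differed by probe. ILMN_1216822 averaged -0.30 with LysM-Cre (adjusted p = 0.0897) and -0.31 in old samples (0.749), while ILMN_2690256 gave -0.23 in TAU, 0.01 in old and -0.09 in young samples. With LysM-Cre, 4 member probes lay at least 0.2 below 0 in all 3 settings (11.8%, against 2.89% of all probes): 2 of Insig1, 1 of Insig2 and 1 of Nsdhl, none called. None of these 4 is the brightest probe of its gene, and no brightest member probe met this criterion. Probes of 1 gene are not independent, so the share is a description. At least 0.2 above 0 in all 3 were 2 probes, Srebf2 and Nr1h3 (5.88%, against 3.25% of all). Srebf1, the fatty acid regulator, had a difference of -0.52 in old against young LysM-Cre samples (adjusted p = 0.226), with levels of 6.61, 6.61 and 7.50 against 7.52, 7.20 and 7.57. Without old LysM-Cre 3, the array at 7.50, it was -0.82 and called (adjusted p = 0.0351).

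**Figure D2:**
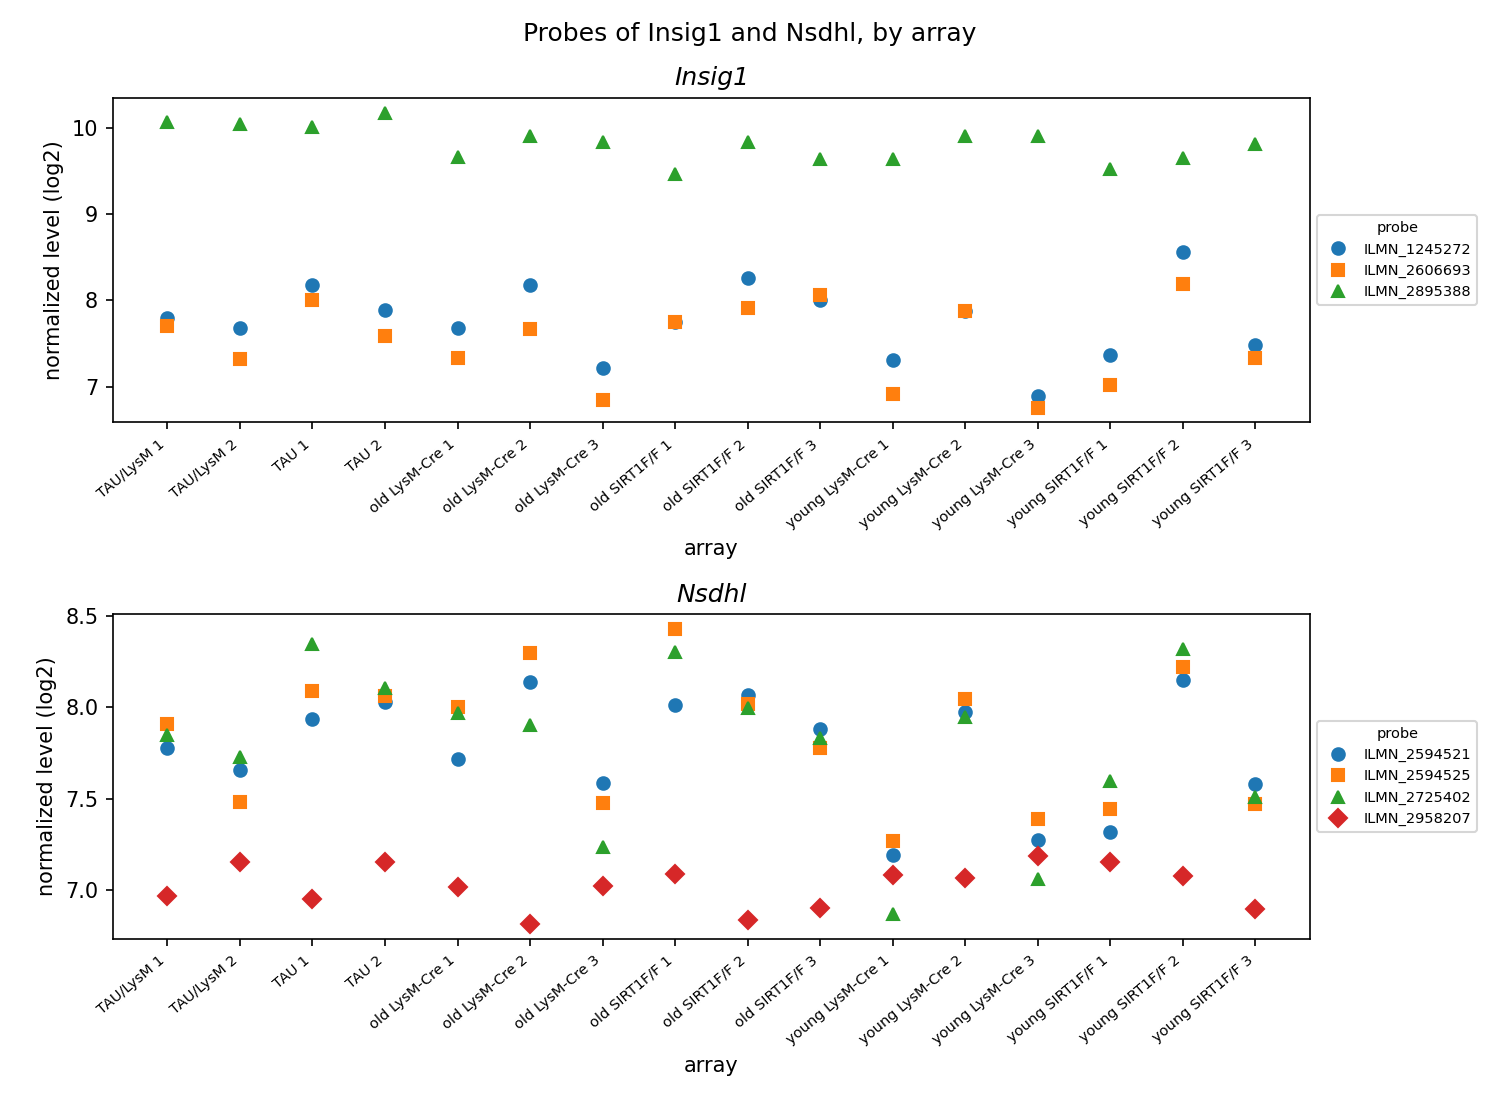
Normalized log2 level on each array, by group, for each tested probe of Insig1 (top) and Nsdhl (bottom), a symbol per probe. The dim Insig1 probes scatter more within a group (SD 0.45 each) than the brightest (0.14), whose arrays lie between 9.47 and 10.17.

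In the mevalonate branch 5 of 7 members were measured. Hmgcs1, which makes HMG-CoA, was nearly constant: its 16 arrays ran from 12.63 through a median of 12.81 to 12.94. Its average LysM-Cre difference was -0.06, with an interval of -0.18 to 0.05. Pmvk, the phosphomevalonate kinase, was 0.32 higher in TAU/LysM than TAU, 0.19 in old and 0.25 in young LysM-Cre samples, which averages 0.25 ± 0.07 (adjusted p = 0.0674, not called). With age it was -0.24 in LysM-Cre and -0.19 in SIRT1F/F samples (adjusted p = 0.252 and 0.451). Mvd, the decarboxylase that forms isopentenyl diphosphate, was -0.51 in TAU against young SIRT1F/F samples (adjusted p = 0.115).

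Idi1, the isomerase that gives dimethylallyl diphosphate, rose in TAU/LysM against young LysM-Cre samples. It read 7.15 and 7.48 on the TAU/LysM arrays, against 6.89, 6.99 and 6.84 in old LysM-Cre and 6.81, 6.74 and 6.73 in young LysM-Cre samples, without overlap. It read 7.07 and 6.68 in TAU, 6.80, 6.69 and 6.89 in old SIRT1F/F and 6.95, 6.82 and 6.92 in young SIRT1F/F samples. The difference was 0.55 ± 0.13 against young LysM-Cre (1.47-fold, adjusted p = 0.0226), 0.40 against old LysM-Cre (0.139) and 0.44 ± 0.14 against TAU (0.171). The call was lost without young LysM-Cre 2 (adjusted p = 0.0502), young LysM-Cre 3 (0.0634) or TAU/LysM 2 (0.209). Fdps, farnesyl diphosphate synthase, was 0.33 in TAU/LysM against young LysM-Cre samples (adjusted p = 0.0911).

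In the squalene and sterol branch 8 of 9 members were measured, and 1 probe was called. Sqle, squalene epoxidase, is a step often limiting for the sterol rings. Its dimmer probe ILMN_2600348 read 8.24 and 7.85 in TAU/LysM against 7.27, 7.36 and 7.05 in young LysM-Cre samples, 0.82 ± 0.23 higher (1.76-fold, adjusted p = 0.0454). It read 8.07 and 7.61 in TAU, 8.02, 7.94 and 7.24 in old LysM-Cre, 7.96, 7.64 and 7.61 in old SIRT1F/F and 7.50, 7.75 and 7.41 in young SIRT1F/F samples. TAU/LysM thus overlapped every group except young LysM-Cre and young SIRT1F/F. The brighter probe ILMN_2737163 read 10.33 and 10.17 in TAU/LysM, against 9.96, 9.70 and 9.96 in young LysM-Cre samples, a difference of 0.38 (adjusted p = 0.158). The call on the dimmer probe was lost on leaving out any 1 of the 5 arrays compared (differences 0.62 to 1.01).

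The later enzymes of the branch showed no call. Across TAU/LysM against young LysM-Cre all 8 genes had a difference above 0, from 0.08 to 0.38 with a median of 0.18. Of all tested probes 46.9% were above 0, with a median of -0.02. Against old LysM-Cre 7 of 8 genes were above 0, with a median of 0.20, where 49.6% of all probes were, with a median of -0.002. The genes were read on the same arrays, so these counts of signs are a description. In that comparison Dhcr7, which makes the last step to cholesterol, had the smallest p (0.43, adjusted p = 0.138). Dhcr7 was also -0.34 in old against young LysM-Cre samples (adjusted p = 0.186), with levels of 7.69, 7.56 and 7.63 against 7.91, 7.87 and 8.12. Lss, lanosterol synthase, was -0.35 in old against young SIRT1F/F samples (adjusted p = 0.298). Cyp51, the lanosterol demethylase, spanned 8.59 to 9.24, Msmo1, a sterol methyl oxidase, 10.02 to 10.77, Hsd17b7, a sterol keto reductase, 8.72 to 9.46, and Sc5d, a sterol desaturase, 6.44 to 7.40. Nsdhl, a sterol dehydrogenase, had 4 tested probes: ILMN_2725402 averaged -0.43 with LysM-Cre (adjusted p = 0.20). The brightest, ILMN_2594525, gave -0.38 in TAU, -0.15 in old and -0.14 in young samples, ILMN_2594521 gave -0.27, -0.17 and -0.21, and ILMN_2958207 gave 0.01, 0.01 and 0.07 in the same order. Thus 3 of the 4 were below 0 in all 3 settings, none called.

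In fatty acid synthesis all 6 members were measured and 2 were called. Acaca encodes acetyl-CoA carboxylase alpha, which makes the malonyl-CoA that chains are built from. Its level was 10.54 and 11.13 on the TAU/LysM arrays and 10.14 and 10.36 on the TAU arrays. It was 9.65, 9.39 and 9.53 in old LysM-Cre samples and 9.45, 9.51 and 9.68 in old SIRT1F/F samples. The young LysM-Cre arrays read 9.59, 9.53 and 9.73, and the young SIRT1F/F arrays 9.81, 9.33 and 9.50. All 4 arrays of the TAU groups were above all 12 others, and both TAU/LysM arrays were above both TAU arrays.

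Acaca rose by 1.31 ± 0.17 in TAU/LysM against old LysM-Cre (2.48-fold, adjusted p = 0.00148) and by 1.22 ± 0.17 against young LysM-Cre samples (2.33-fold, adjusted p = 0.00139). The call held without any 1 array in either comparison, with differences of 1.02 to 1.60 and 0.93 to 1.51, and was lost against young LysM-Cre only when the 5 arrays low in Xist or Eif2s3y were left out (1.53, adjusted p = 0.0655). In TAU samples it rose by 0.71 ± 0.17 against old SIRT1F/F (1.63-fold, adjusted p = 0.0392) and by 0.70 ± 0.17 against young SIRT1F/F samples (1.63-fold, adjusted p = 0.0204). These TAU calls were less firm: against old samples the call was lost without any 1 of the 5 arrays (0.60 to 0.81), and against young samples without young SIRT1F/F 2 or 3 or TAU 1 or 2 (adjusted p = 0.0521, 0.065, 0.0899 and 0.145). TAU/LysM against TAU was 0.58 ± 0.19 (adjusted p = 0.176), and the LysM-Cre difference in TAU samples was not shown to differ from that in old (0.60 ± 0.25, adjusted p = 0.576) or young samples (0.51 ± 0.25, 0.666).

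Markers of other cells beside Acaca were as follows. The oligodendrocyte sum was 7115 to 8129 in TAU/LysM, inside the range of the 12 arrays without a TAU label, and 5 of the 10 markers were above background there. The summed intensity of the 11 microglia markers was 151833 to 159700 in TAU/LysM and 178831 to 180400 in TAU, against 176484 to 220674 over the 12 others. Markers of border-associated macrophages, all 8 listed, were above background on every array. They summed to 57342 to 58238 in TAU/LysM, against 35984 to 41313 in old and 41013 to 53080 in young LysM-Cre samples. The sum was 38031 to 42588 in TAU, against 29984 to 34773 in old and 36408 to 60280 in young SIRT1F/F samples. Young SIRT1F/F 1, at 60280, lay above both TAU/LysM arrays, with an Acaca level of 9.81. Of the border-associated macrophage markers Ms4a7 was called higher in TAU/LysM against old and Lyve1 against young LysM-Cre samples. The part of these markers in the Acaca difference was not tested. With the oligodendrocyte level as a covariate the Acaca difference in TAU/LysM was 1.27 against old and 1.22 against young LysM-Cre samples. In TAU it was 0.14 ± 0.62 against old and 0.13 ± 0.62 against young SIRT1F/F samples, with neither called. For Acaca, the TAU group without LysM-Cre and its high oligodendrocyte marker level cannot be told apart.

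Scd1, a stearoyl-CoA desaturase that puts the double bond into oleate, was high on the TAU arrays alone. It read 10.87 and 10.80 there, against 9.47 and 9.61 in TAU/LysM, 10.04, 9.88 and 9.63 in old SIRT1F/F and 10.07, 9.43 and 9.39 in young SIRT1F/F samples. In old LysM-Cre samples it read 9.77, 9.20 and 9.64, and in young LysM-Cre samples 9.91, 9.23 and 9.61. The TAU arrays were above all 14 others.

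Scd1 fell by 1.29 ± 0.26 on the log2 scale in TAU/LysM against TAU samples (adjusted p = 0.0238). In TAU it rose by 0.98 ± 0.23 against old SIRT1F/F (1.97-fold, adjusted p = 0.0334) and by 1.20 ± 0.23 against young SIRT1F/F samples (2.30-fold, adjusted p = 0.00619). The TAU/LysM against TAU call was lost without any 1 of its 4 arrays (adjusted p = 0.0861 to 0.201), that against old without old SIRT1F/F 2 or 3 or TAU 1 or 2 (0.0896, 0.102, 0.248 and 0.144), and that against young without TAU 1 (0.0766). Averaged over settings the LysM-Cre difference was -0.55 (adjusted p = 0.0536). It was called in 7 of the alternative fits tried (adjusted p down to 0.0328) and was -0.033 ± 0.32 with the oligodendrocyte marker level as a covariate. The difference in TAU minus that in young samples was -1.25 ± 0.33 (0.177), that in TAU minus old -0.98 ± 0.33 (0.389).

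Oligodendrocytes express desaturases for myelin, and their markers separate the same arrays: the sum was 32434 to 41968 in TAU, with all 10 above background, against at most 10977 on any other array. With the mean oligodendrocyte level as a covariate the Scd1 differences were 0.07 ± 0.81 for TAU/LysM against TAU, -0.32 ± 0.77 for TAU against old and -0.09 ± 0.77 for TAU against young SIRT1F/F samples, with errors too large to give a sign. Only the arrays of the TAU group, without LysM-Cre, carry the high marker level, so that group and this RNA cannot be told apart for Scd1. The TAU/LysM arrays also bear the TAU label, with a marker sum of 7115 to 8129 and Scd1 levels of 9.47 and 9.61. Choroid plexus markers, all 7 tested of 8 listed, also had their highest sum there, 53984 to 59831 in TAU against 35028 to 42966 in TAU/LysM and 33575 to 48624 over the 12 others, and their part was not tested.

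**Figure D3:**
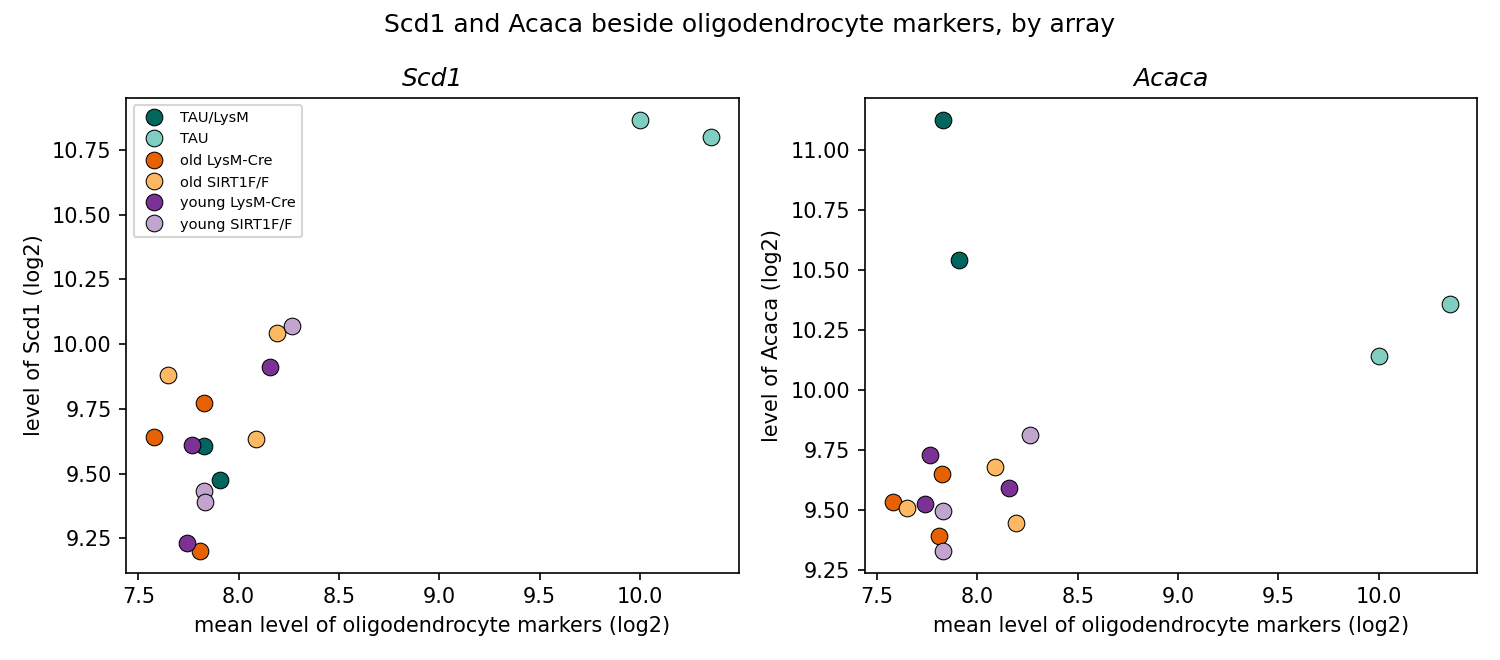
Level of Scd1 (left) and Acaca (right), both log2, against the mean log2 level of the 10 oligodendrocyte markers, 1 point an array and a colour a group. The TAU arrays lie apart at the high end of the marker axis, with the highest Scd1, while the TAU/LysM arrays hold the highest Acaca at 7.83 and 7.91.

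The other fatty acid genes were not called. Scd2, the desaturase isoform abundant in brain, was 0.42 in TAU against young SIRT1F/F samples (adjusted p = 0.218). Elovl6, which lengthens palmitate, was 0.48 in TAU against old SIRT1F/F (adjusted p = 0.283) and -0.49 in TAU/LysM against TAU samples (0.409). Acly, which makes cytosolic acetyl-CoA, ran from 12.90 to 13.20 over all 16 arrays, with an average LysM-Cre difference of -0.04 and an interval of -0.18 to 0.09. Fasn, fatty acid synthase, was above background on 10 of 16 arrays, so its level of 5.93 to 6.76 is close to what this array can show.

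Among the carriers and exporters, Stard4, a cytosolic cholesterol carrier under SREBP2 control, was called. It read 8.63 and 8.51 in TAU/LysM, against 8.35, 7.78 and 7.78 in old LysM-Cre and 7.80, 7.48 and 7.47 in young LysM-Cre samples, with no overlap. It read 8.53 and 8.08 in TAU, 8.22, 8.42 and 8.73 in old SIRT1F/F and 7.91, 8.18 and 7.56 in young SIRT1F/F samples. Stard4 rose by 0.98 ± 0.22 in TAU/LysM against young LysM-Cre samples (1.98-fold, adjusted p = 0.0198). The call was lost without young LysM-Cre 3 (0.0601), TAU/LysM 1 (0.126) or TAU/LysM 2 (0.0896). Against old LysM-Cre the difference was 0.60 (adjusted p = 0.198).

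Stard4 also had the smallest p of the members in old against young SIRT1F/F (0.57 ± 0.20, adjusted p = 0.182, without overlap) and in old LysM-Cre against old SIRT1F/F samples (-0.49, adjusted p = 0.736). Abca1 was above background on 3 of 16 arrays and its level of 5.65 to 6.58 shows little. Abcg1, a sterol exporter to lipoprotein, ran from 8.50 to 9.64 and was not called in any comparison, though it was with the replicate number as a block in old against young LysM-Cre and TAU/LysM against old LysM-Cre samples. Nr1h3, which encodes liver X receptor alpha, was 0.21 in TAU, 0.32 in old and 0.43 ± 0.16 in young samples with LysM-Cre (adjusted p = 0.773 and 0.626 for old and young). Its average was 0.32 ± 0.10 (adjusted p = 0.115).

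**Figure D4:**
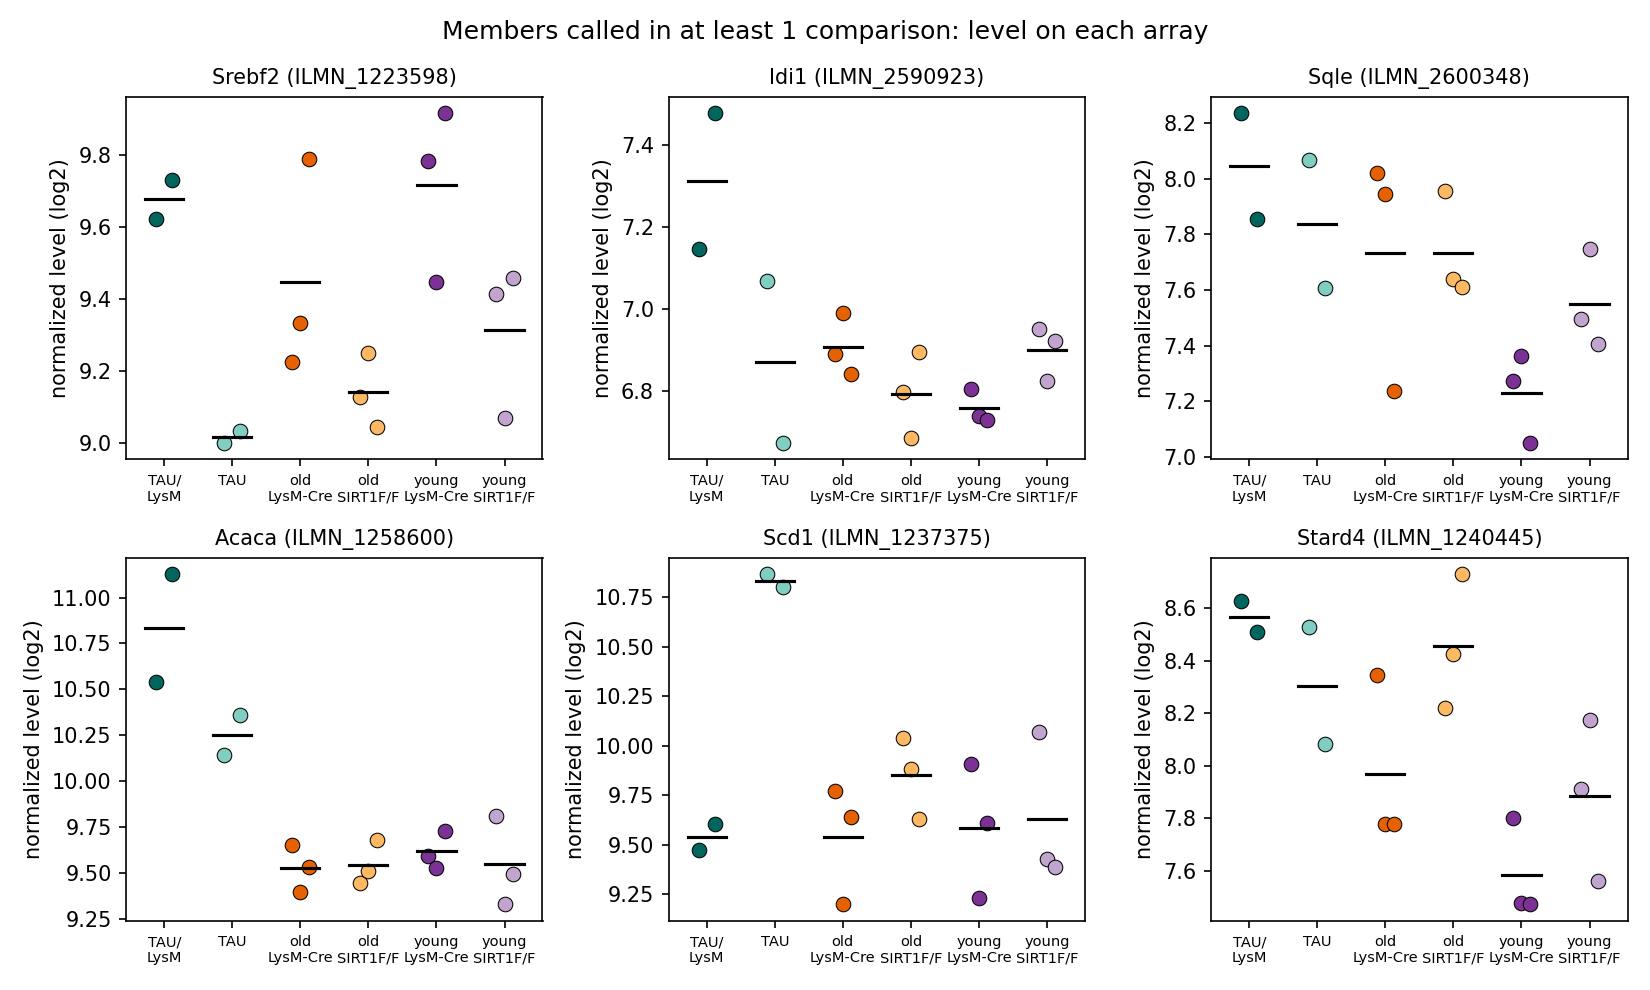
Normalized log2 level on each array, by group, of the 6 members called in at least 1 comparison, points being arrays and bars group means. Acaca is highest in the TAU groups, Scd1 is highest in TAU (10.80 and 10.87) and Srebf2 is lowest in TAU (9.001 and 9.032).

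**Figure D5:**
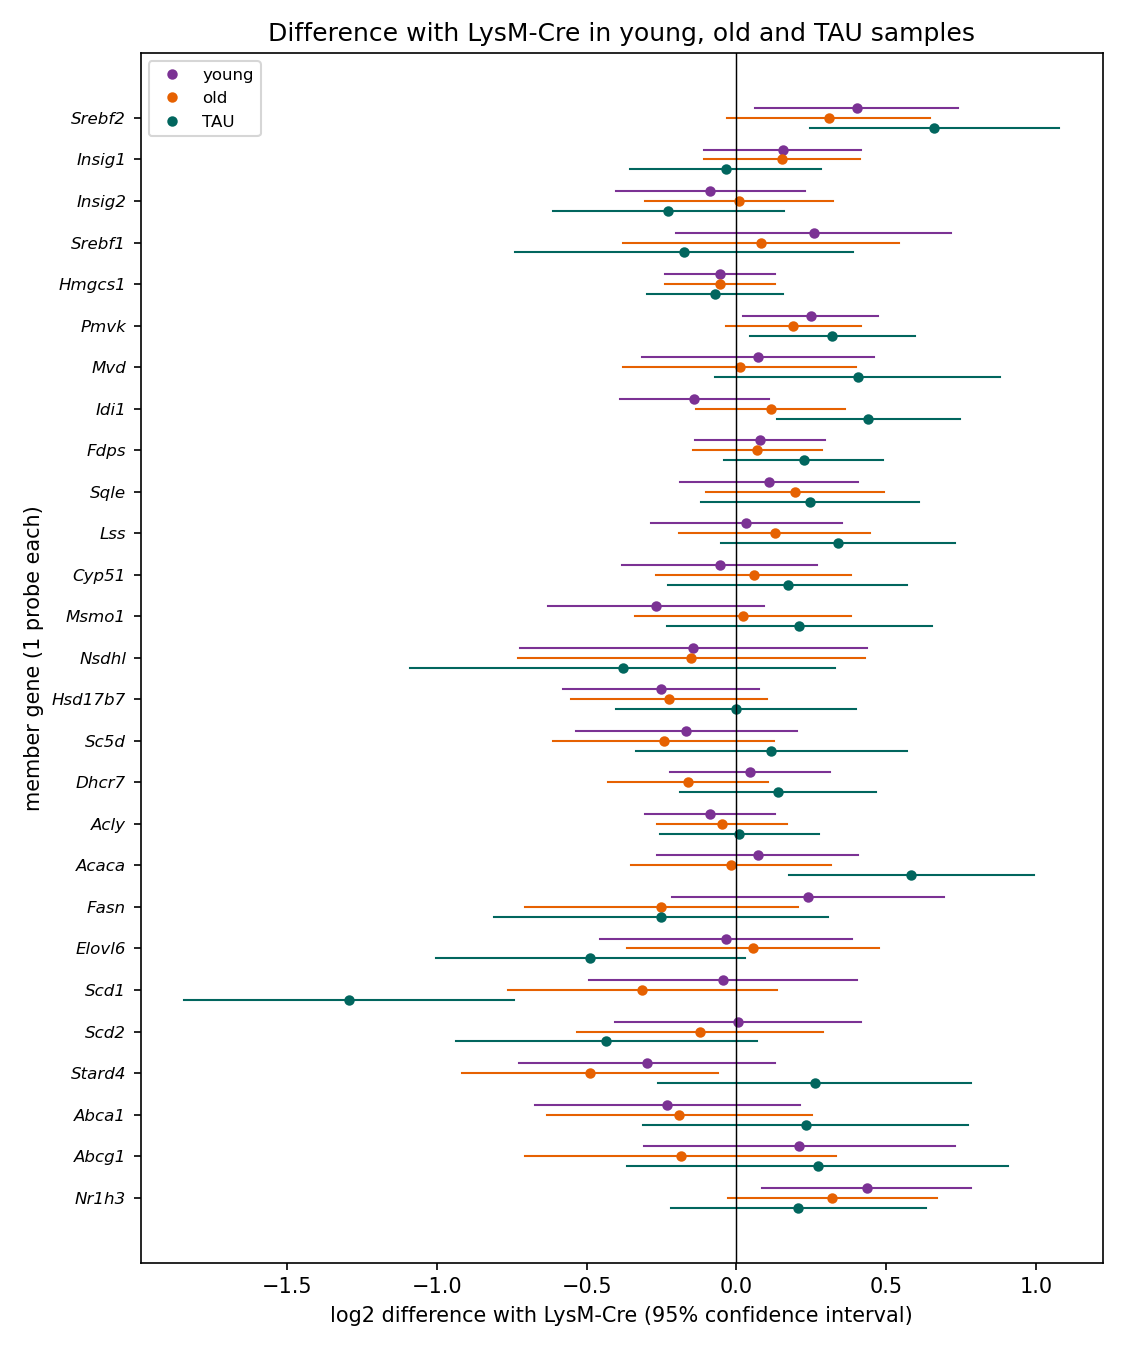
LysM-Cre difference of each member gene (1 probe each, log2) in young, old and TAU samples, with 95% confidence intervals. Most intervals cross 0, and the TAU interval of Scd1 lies farthest from it, around -1.29.

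Lists of neighbouring pathway genes, chosen with earlier results of these data known, were read by counts. Of 10 other sterol synthesis and uptake genes 4 were tested, and 0 were called in any comparison with limma. Of 6 genes that process SREBP 4 were tested and 0 were called, and of 14 fatty acid oxidation genes 9 were tested and 0 were called. Of 21 other fatty acid synthesis genes 19 were tested, and 2 were called, in TAU against young SIRT1F/F samples: Me1, malic enzyme (1.44 ± 0.28, adjusted p = 0.00627), and Fads2, a fatty acid desaturase (0.78 ± 0.20, adjusted p = 0.026). In that comparison 11.9% of all probes were called, so 2 of 19 is no more than the share over the array.

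Of 12 other liver X receptor targets and lipid export genes 10 were tested. In TAU/LysM 3 were called higher against old LysM-Cre samples, where 1.48% of all probes were, and 5 against young LysM-Cre samples, where 3.46% were. In TAU 3 were called higher against old SIRT1F/F samples, where 2.72% of all probes were, and 3 against young SIRT1F/F samples, where 6.31% were. Since the list was chosen with such results known, its counts are a description. Apoc1, an apolipoprotein made by lipid-laden macrophages, was 4.14 ± 0.21 higher in TAU/LysM against old LysM-Cre samples and 3.36 ± 0.21 against young (adjusted p = 1.64e-07 and 1.27e-06). In TAU it was 3.13 higher against old and 2.88 against young SIRT1F/F samples (adjusted p = 3.54e-06 and 6.09e-06). It was also higher in TAU/LysM than TAU (1.15 ± 0.23, adjusted p = 0.0245) and in the LysM-Cre average (0.65 ± 0.12, limma adjusted p = 0.0257). Lpl, lipoprotein lipase, rose in TAU/LysM by 1.58 against old and 2.40 against young LysM-Cre samples, and Apoe, the main brain apolipoprotein, by 0.66 and 0.60. In TAU, Lpl rose by 1.28 against old and 1.95 against young SIRT1F/F samples, and Apoe by 0.89 and 0.60. Npc2, a lysosomal sterol carrier, rose by 0.72 in TAU/LysM against young LysM-Cre samples.

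Of 10 genes of sterol esters, droplets and oxysterols 9 were tested. In TAU against young SIRT1F/F samples 3 were called higher and 1 lower, where 11.9% of all probes were called and 6.31% were called higher. Called higher were Nceh1, a cholesterol ester hydrolase (0.64), Ch25h, which makes an oxysterol (1.17), and Plin3, a droplet coat protein (0.52). Called lower was Cyp27a1, a sterol hydroxylase (-0.59). In TAU/LysM against young LysM-Cre samples Nceh1 (0.86) and Ch25h (1.17) rose, where 3.46% of all probes were called higher. Against old LysM-Cre samples Nceh1 (0.66) and Plin2, a droplet coat protein (0.82), rose, where 1.48% of all were called higher. In the LysM-Cre average Plin2 (0.46, adjusted p = 0.0482) and Cyp27a1 (0.31, adjusted p = 0.0489) were called higher, near the threshold, where 0.765% of all probes were. The synthesis genes and these export and storage genes were counted on the same arrays, and no test of a difference between the lists was made.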

How the data were processed

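Illumina bead arrays were read from 2 deposited tables, an intensity table (linear, probe level, per the file headers) and a log2 table that the authors had normalized. The deposited log2 values equal quantile-normalized log2 intensity to within 5e-09, with no background correction and a median of 7.89. The deposited intensity table has no detection p-values and no control probes. Median intensity was 202.9 to 283.6 per array, and 54.9% to 57.5% of probes were above background.

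Intensities were corrected with normexp fitted on all probes (offset 16), log2 transformed and quantile normalized. Background was the mode of log2 intensity plus 1.64 spreads (upper tail 0.05), needed on 2 arrays. limma 3.58.1 in R 4.3.3 fitted 6 group means (10 residual degrees of freedom, prior 3.68), with Benjamini-Hochberg adjustment over 16344 probes. The step was tested on simulated data. Symbols came from the platform annotation, where 23978 of 25697 probes have 1 symbol, 0 several and 1719 none. A gene with several probes is represented by the brightest, and others are given where they differ.

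The members and lists were chosen with earlier results of these data known. Named were every called member and, where fewer than 3 were called, those of smallest p. Of 36 same-numbered pairs 11 correlated above 0.1. Every pair did between young LysM-Cre and young SIRT1F/F samples (0.346, 0.508 and 0.237), where 0 probes were called with or without the block. Both pairs also did between TAU/LysM and TAU samples (0.237 each). With 2 arrays a group these 2 values are equal by construction, so they give little ground for pairing. There 343 probes were called with the block and 242 without it. Between old and young LysM-Cre samples numbers 2 and 3 correlated above 0.1 (0.397 and 0.341), and number 1 did not (-0.02). Between old LysM-Cre and young SIRT1F/F samples numbers 2 and 3 did (0.462 and 0.249), and number 1 did not (0.081). The remaining pairs above 0.1 were TAU/LysM 1 with old SIRT1F/F 1 (0.152) and old with young SIRT1F/F 3 (0.137). The main fit used no pairing. The number of arrays limits the precision. Alternatives tried were the offset, the deposited log2 table, cyclic loess, the filter, a replicate block, only the groups compared, trended variance, array weights, an oligodendrocyte covariate, and leaving out arrays.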

Additional observations from a re-analysis of the deposited data

How the results depend on the processing

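Groups hold 2 or 3 arrays, signal over background limits Fasn and Abca1, and counts of called member probes moved with the processing. The LysM-Cre average, 1 as reported, was 2 with offset 50, with the stricter filter, with trended and robust variance and with array weights, 3 with the deposited log2 table, and 0 with cyclic loess, with no filter, with the oligodendrocyte covariate and without the 5 arrays low in Xist or Eif2s3y. TAU against old SIRT1F/F, 2 as reported, was 0 with no filter, with the covariate and without those 5 arrays. TAU against young SIRT1F/F, 2 as reported, was 0 with only the groups compared and with the covariate. TAU/LysM against young LysM-Cre, 4 as reported, was 2 with no filter and with only the groups compared, and 0 without the 5 arrays. TAU/LysM against TAU, 1 as reported, was 2 with array weights, and 0 with the covariate and without the 5 arrays.

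Outside the young and the TAU genotype comparisons the replicate numbers were taken only to name samples. Some same-numbered pairs correlated there too, up to 0.462. With the replicate block the LysM-Cre average had 3 called member probes (Insig2 and Scd1 beside Srebf2). Old against young LysM-Cre had 1 (Abcg1), and TAU/LysM against old LysM-Cre had 2 (Abcg1 beside Acaca). In old against young LysM-Cre 549 of all tested probes were called with the block and 279 without it. TAU against old and against young SIRT1F/F had 3 each (Insig1 beside Acaca and Scd1). In young LysM-Cre against young SIRT1F/F samples 0 were called with the block, as without it. In TAU/LysM against TAU samples 1 was called (Scd1), also as without it. Some samples, TAU/LysM 2 among them, correlated best with another number.

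Leaving out each array in turn gave 0 to 4 for the LysM-Cre average, 0 to 1 for TAU against old SIRT1F/F, 0 to 2 for TAU against young SIRT1F/F, 1 to 3 for TAU/LysM against young LysM-Cre, 0 for TAU/LysM against TAU, 0 to 1 for old against young LysM-Cre and 0 to 1 for the LysM-Cre difference in TAU minus young samples (Scd1, without young SIRT1F/F 1). A lone array left in a group was assumed to vary like the other groups.

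With the oligodendrocyte covariate the sign of Scd1 turned, with SEs of 0.76 to 0.81: 0.068 in TAU/LysM against TAU, -0.32 in TAU against old and -0.094 in TAU against young SIRT1F/F, and 0.062 and 0.24 for the LysM-Cre difference in TAU minus young and minus old samples. The cause was not tested. Of the values of named members 640 kept their direction and side of the threshold, 65 were no longer past it, 20 passed it and 5 changed sign. Over all tested probes the counts also moved: over the alternatives 0 to 2620 against 1953 for TAU against young SIRT1F/F, 0 to 1513 against 652 for TAU against old SIRT1F/F, 42 to 1499 against 1189 for TAU/LysM against young LysM-Cre, 71 to 551 against 370 for TAU/LysM against old LysM-Cre, 0 to 484 against 242 for TAU/LysM against TAU, 0 to 449 against 199 for the LysM-Cre average, 1 to 549 against 279 for old against young LysM-Cre and 0 to 451 against 207 for old against young SIRT1F/F.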
